A study of Mus musculus with 3 samples.

Results

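Genomic imprinting keeps a gene silent on the allele from one parent and active on the allele from the other. The stretches examined here hold textbook imprinted domains, and the open chromatin of these domains was described in mouse embryonic stem cells. The members were the listed FAIRE intervals whose midpoint fell in one of 4 fixed windows of the mouse build mm9. These windows were chromosome 7 from 149.5 to 151.3 Mb (the H19-Igf2 and Kcnq1 domains), chromosome 12 from 110.4 to 111.6 Mb (Dlk1-Meg3-Dio3), chromosome 17 from 12.6 to 13.3 Mb (Igf2r-Airn) and chromosome 2 from 173.9 to 174.4 Mb (Gnas). They held 499 of the 348759 intervals of the list, with 249 on chromosome 7, 69 on chromosome 12, 96 on chromosome 17 and 85 on chromosome 2. The domain names were given with the windows and were not checked against an mm9 annotation. Members were taken by position, without a limit on width or score, but the windows themselves were picked with earlier results of these data known.

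In FAIRE, short for formaldehyde-assisted isolation of regulatory elements, chromatin is crosslinked and sheared, and DNA with few bound nucleosomes is extracted and sequenced. The series comprised a FAIRE sample of wild type embryonic stem cells of a mixed 129Sv and C57Bl/6 background treated with 500 nM ICRF-193, an inhibitor of topoisomerase II catalysis, for 16 h, a FAIRE sample of the same kind of cells given the solvent DMSO for 16 h, and an input library of genomic DNA from stem cells, whose treatment is not labelled. The treated cells were grown without feeder cells. Replicates 1 and 2 share a title in both FAIRE samples, so there was 1 sample per group. The file analysed was 1 pooled list without a sample column, so ICRF-193 was not compared with DMSO, replicate error could not be estimated, and no p-value is given. The list also does not separate the parental alleles, so none of the values below measures imprinting itself. Read depth is unknown.

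Each domain is organised around a control region that is methylated on the allele from one parent. H19 is a noncoding RNA active on the maternal allele, and its neighbour Igf2 encodes a fetal growth factor active on the paternal allele. In the adjoining Kcnq1 domain, the noncoding RNA Kcnq1ot1 is transcribed from the paternal allele and silences neighbours such as Cdkn1c, an inhibitor of the cell cycle, and Phlda2, a regulator of placental growth. Dlk1 encodes a transmembrane protein of the Notch ligand family and is active on the paternal allele. Meg3, Rian and Mirg are noncoding transcripts of the maternal allele of the same domain, and Dio3 encodes the enzyme that inactivates thyroid hormone. Airn is a noncoding RNA of the paternal allele that overlaps and silences Igf2r, the receptor that clears Igf2. Gnas encodes the alpha subunit of the stimulatory G protein and uses several promoters that differ in their imprinting.

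Gene order was taken from a RefSeq table of assembly GRCm38.p6, in which 35 of 36 genes chosen for these domains were found. Since that build differs from mm9, no interval was assigned to a gene. In the order of that assembly, the chromosome 7 genes ran from H19 to Osbpl5, with Igf2, Ins2, Th, Ascl2, Cd81, Tssc4, Trpm5, Kcnq1 with Kcnq1ot1, Cdkn1c, Phlda2 and Nap1l4 among those between them, a stretch with 37 annotated genes of which 18 code for protein. The chromosome 12 genes ran from Begain through Dlk1, Meg3, Rtl1, Rian and Mirg to Dio3. That stretch had 106 annotated genes, of which only 4 code for protein while 61 are microRNA genes and 19 are small nucleolar RNA genes. The chromosome 17 genes ran from Plg to Mas1, with Igf2r and Airn between them, among 12 genes of which 6 code for protein. The chromosome 2 order was Stx16, Npepl1, Gnas, Nelfcd, Ctsz and Tubb1, also among 12 genes with 6 coding for protein. These stretches are bounded by genes and are not the same as the mm9 windows.

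Promoter sequences are shown for 1 gene of each window, as examples of the DNA of these domains, and they carry no FAIRE value. The RefSeq table of GRCm38.p6 held 40 promoters for 26 of the 36 genes, each with 250 bases before and 50 bases after a transcription start. They held a median of 15.5 CpG dinucleotides, the site of methylation in imprints, against 7 in all 32851 promoters of the table. The median was 15 over 15 promoters of the chromosome 7 genes and 25 over 11 of chromosome 12. It was 5 over 5 promoters of chromosome 17 and 18 over 9 of chromosome 2. The median of the chromosome 17 promoters was thus below that of the table, although single promoters ranged from 2 to 34. A gene with several promoters counts more than once. For each gene shown, the promoter with the most CpG was taken, in the gene's own direction from 5′ to 3′, and capitals mark each CpG.
Igf2: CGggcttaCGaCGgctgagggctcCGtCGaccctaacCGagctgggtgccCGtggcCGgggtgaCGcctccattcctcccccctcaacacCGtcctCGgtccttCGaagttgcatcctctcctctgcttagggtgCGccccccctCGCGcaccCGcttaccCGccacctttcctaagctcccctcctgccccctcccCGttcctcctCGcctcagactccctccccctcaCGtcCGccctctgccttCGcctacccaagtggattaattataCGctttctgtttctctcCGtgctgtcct
Meg3: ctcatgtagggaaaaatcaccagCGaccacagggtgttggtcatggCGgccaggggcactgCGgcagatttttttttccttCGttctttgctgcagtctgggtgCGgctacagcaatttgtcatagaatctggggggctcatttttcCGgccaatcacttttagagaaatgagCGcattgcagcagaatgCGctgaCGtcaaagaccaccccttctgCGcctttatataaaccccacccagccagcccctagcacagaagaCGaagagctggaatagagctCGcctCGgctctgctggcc
Igf2r: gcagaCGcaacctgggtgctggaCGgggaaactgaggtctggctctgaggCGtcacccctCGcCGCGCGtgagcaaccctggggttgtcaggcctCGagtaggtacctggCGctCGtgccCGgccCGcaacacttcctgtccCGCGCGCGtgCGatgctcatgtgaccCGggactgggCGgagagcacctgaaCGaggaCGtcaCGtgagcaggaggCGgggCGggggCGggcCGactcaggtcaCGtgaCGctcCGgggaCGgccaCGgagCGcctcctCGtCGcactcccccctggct
Gnas: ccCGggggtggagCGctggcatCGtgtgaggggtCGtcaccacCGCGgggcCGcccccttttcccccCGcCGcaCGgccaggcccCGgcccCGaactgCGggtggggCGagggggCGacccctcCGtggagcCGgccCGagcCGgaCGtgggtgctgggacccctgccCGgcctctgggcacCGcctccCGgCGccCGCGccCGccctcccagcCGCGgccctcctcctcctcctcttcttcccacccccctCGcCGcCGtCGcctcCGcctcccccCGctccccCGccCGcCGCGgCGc
The Igf2 promoter is on the minus strand of chromosome 7 and held 24 CpG, the Meg3 promoter is on the plus strand of chromosome 12 with 13, the Igf2r promoter is on the minus strand of chromosome 17 with 34, and the Gnas promoter is on the plus strand of chromosome 2 with 40. Among all promoters of the table, 96.1% had fewer CpG than the one shown for Gnas and 62.1% fewer than the one shown for Meg3. Since these were picked as the most CpG-rich of 4 promoters for Gnas and of 2 for Meg3, their ranks are raised by the choice. The letters TGCCGC, which the imprint-protecting zinc finger protein ZFP57 binds when methylated, were searched on both strands. They occurred in 4 of the 40 promoters (10.0%), among them the Meg3 promoter shown, against 11.6% of all promoters of the same length. A match describes the letters and is not evidence of binding.

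The windows differed in how much open chromatin they held, with the Dlk1-Meg3-Dio3 window at the low end. The Gnas window had 170 intervals per Mb (exact 95% Poisson interval 136 to 210), the H19-Igf2 and Kcnq1 window 138 (122 to 157), the Igf2r-Airn window 137 (111 to 167) and the Dlk1-Meg3-Dio3 window 57.5 (44.7 to 72.8). The Poisson intervals cover counting error only, and since neighbouring intervals are not independent they are too narrow. The interval of the Dlk1-Meg3-Dio3 window lay below those of the other 3 windows, whose own intervals overlapped. All 4 windows together had 119 intervals per Mb, against 143 over the 19 autosomes. Intervals covered 1.88% of the Gnas window, 1.71% of the chromosome 7 window, 1.62% of the chromosome 17 window and 0.675% of the chromosome 12 window, against 1.64% of the autosomes.

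Autosomal density is uneven, so each window was also set beside all consecutive autosomal tiles of its own length. The Gnas window held 85 intervals against a tile median of 40 among 4820 tiles, or 2.12 times (Poisson interval 1.70 to 2.63), and 70.3% of tiles held fewer. The Igf2r-Airn window held 96 against a median of 60 among 3440 tiles, 1.6 times (1.30 to 1.95), with 62.3% of tiles below it. The chromosome 7 window held 249 against a median of 184 among 1332 tiles, 1.35 times (1.19 to 1.53), with 59.6% of tiles below it. The Dlk1-Meg3-Dio3 window held 69 against a median of 118.5 among 2002 tiles, 0.582 times (0.453 to 0.737), and 34.3% of tiles held fewer. Every window thus lay between the 10th and the 90th percentile of the tiles of its length. The direction against the autosomes depended on the yardstick for 2 windows. Against the mean autosomal density the chromosome 7 window was at 0.969 times and the Igf2r-Airn window at 0.961 times, while the Gnas window was at 1.19 times and the Dlk1-Meg3-Dio3 window at 0.403 times. Against the 98 tiles of its own chromosome, whose median of 79.5 was below the autosomal 118.5, the Dlk1-Meg3-Dio3 window was at 0.868 times the median. Of those tiles 46.9% held fewer, so its number of intervals was near the middle for chromosome 12.

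**Figure D1:**
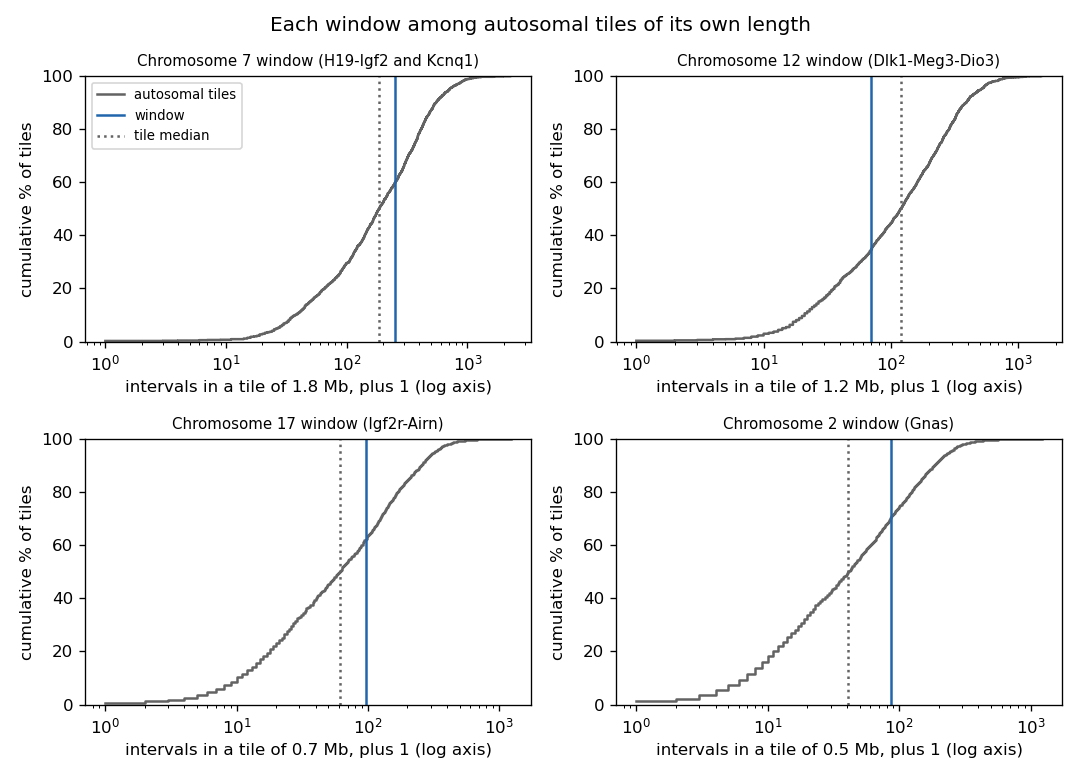
Cumulative percentage of autosomal tiles (vertical axis) by the number of intervals per tile plus 1 (horizontal log axis), in a panel per window with tiles of that window's length. Solid vertical lines mark the windows (249, 69, 96 and 85 intervals) and dotted lines the tile medians, and the chromosome 12 window alone stands left of its median.

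The windows also differed in high-score intervals, defined as the top 10% of the whole list by the authors' deposited score (10.0% of all intervals by definition). The scale of the score is not given, so it ranks intervals within the list only. Of the members, 63 of 499 were high-score, or 12.6% (exact 95% binomial interval 9.84% to 15.9%). The chromosome 7 window held 41 of them, which made 16.5% of its intervals (12.1% to 21.7%). With the top 5% of the list as the limit its share was 6.43%, against 5.0%, so the size of its excess depends on the limit. The Igf2r-Airn window held 11 of 96 (11.5%, 5.86% to 19.6%) and the Gnas window 9 of 85 (10.6%, 4.96% to 19.2%), both with intervals that include the 10.0% of the whole list. The Dlk1-Meg3-Dio3 window held 2 of 69 (2.90%, 0.353% to 10.1%), whose interval also just reaches 10.0%. With each end of the window lengthened by 100 kb its share was 9.26%, close to that of the whole list, so the low share depends on where the edges lie. Without the chromosome 7 window the other windows together had 8.80% high-score intervals. The binomial intervals also cover counting error only.

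Counted per length, the chromosome 7 window had 22.8 high-score intervals per Mb, the Gnas window 18.0, the Igf2r-Airn window 15.7 and the Dlk1-Meg3-Dio3 window 1.67, against 14.2 over the autosomes. Among autosomal tiles of the same length, 80.4% held fewer high-score intervals than the chromosome 7 window, 70.6% fewer than the Gnas window and 66.3% fewer than the Igf2r-Airn window. For the Dlk1-Meg3-Dio3 window 10.4% of tiles held fewer than its 2 and another 5.44% held exactly 2. Its ratio to the tile median of 11 was 0.182 (Poisson interval 0.022 to 0.657), which rests on 2 intervals and overlaps the interval of its ratio for all intervals. Against the tiles of chromosome 12 alone, whose median was 7, the ratio was 0.286 and 18.4% of tiles held fewer.

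**Figure D2:**
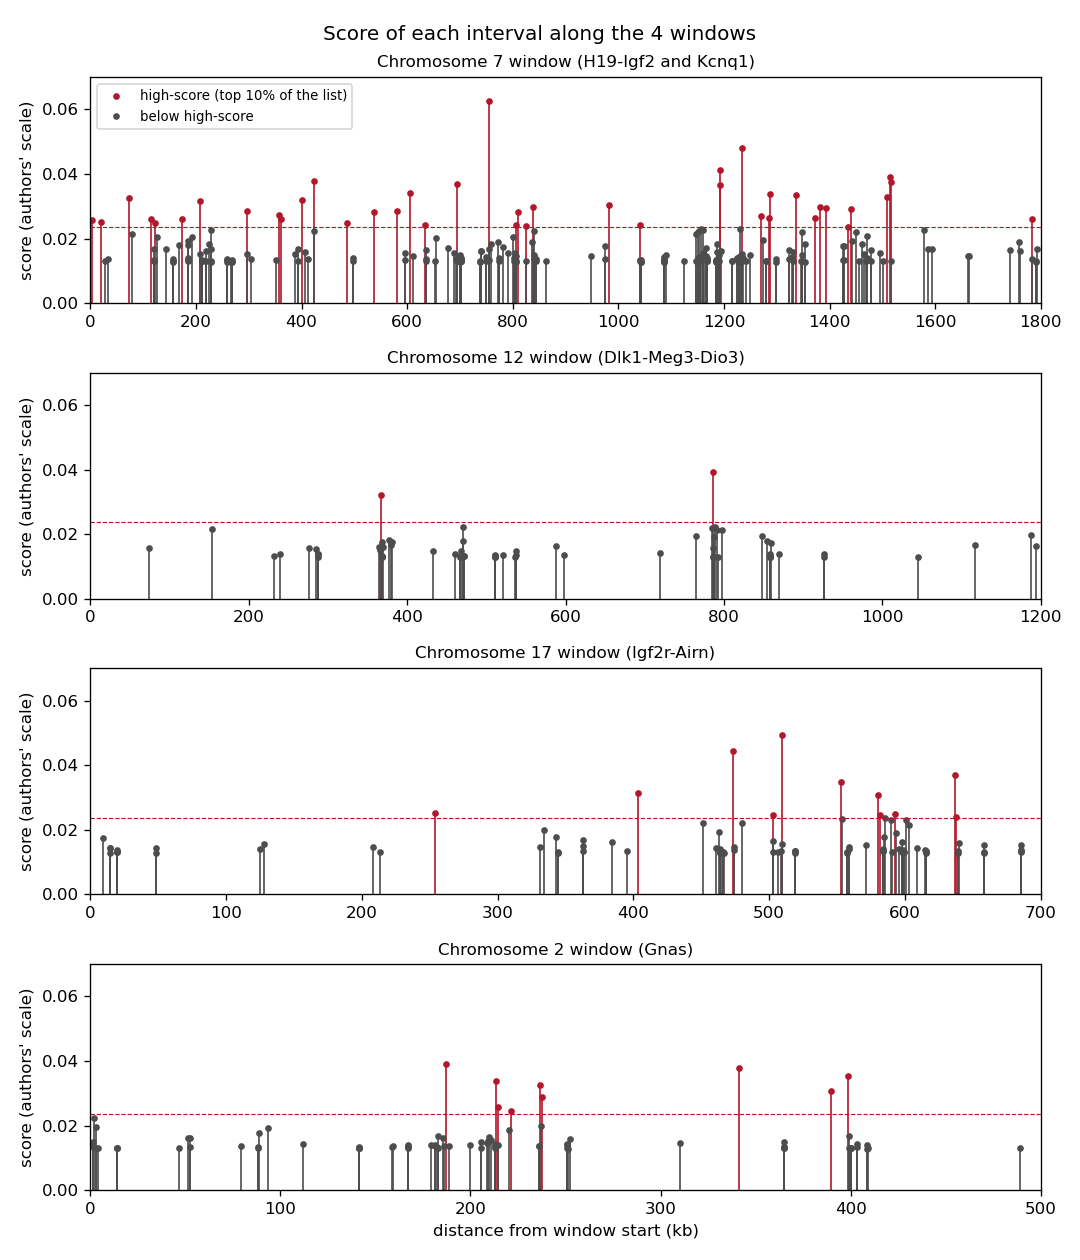
Score of every member (vertical axis, the authors' scale) by distance from the start of its window in kb (horizontal axis), in a panel per window, with high-score intervals in red and the dashed line at their lower limit. The chromosome 12 panel has 2 red points and the chromosome 7 panel 41, spread over most of its length.

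In the H19-Igf2 and Kcnq1 window, high-score intervals were spread widely rather than gathered in a few places. Of its 36 bins of 50 kb, 25 held at least 1 high-score interval and 11 held none, or 30.6%, against 65.4% of autosomal bins with none. The left 900 kb held 125 intervals with 23 high-score and the right 900 kb held 124 with 18. The highest score of all members, 0.0626, belonged to the interval at 150254793 to 150255456, which was 664 bp wide and also the widest of the window. It scored 4.87 times the lowest score of the list (0.0129), and 99.7% of all intervals scored lower. The next lay at 150734934 to 150735413 (score 0.0480, 480 bp) and at 150692641 to 150692996 (0.0413, 356 bp). They were followed by 151015345 to 151015660 (0.0390, 316 bp) and 149922913 to 149923222 (0.0379, 310 bp). These 5 intervals lay from 423 to 1515.5 kb into the window, so no short stretch held them.

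The fullest 50 kb bin of the chromosome 7 window, 150650001 to 150700000, held 30 intervals, more than 94.9% of autosomal bins, and 2 of the 30 were high-score. These 2 included 1 of the 5 highest scores of the window, 0.0413 at 150692641 to 150692996. The bin to its right, with 16 intervals, held the interval that scored 0.0480. The highest score, 0.0626, lay in the bin from 150250001 to 150300000, which held 9 intervals. The longest stretches without an interval were 150363987 to 150447560 (83.6 kb) and 151164822 to 151241795 (77.0 kb). Stretches of at least 20 kb without an interval, 25 in number, made up 56.1% of the window.

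In the Dlk1-Meg3-Dio3 window, the listed open chromatin lay in small groups of intervals and in single intervals, separated by long empty stretches. The 17 stretches of at least 20 kb without an interval made up 89.1% of the window. The longest were 110997749 to 111119543 (121.8 kb) and 111326430 to 111444852 (118.4 kb). Of 24 bins of 50 kb, 7 were empty (29.2%), close to the 28.5% of autosomal bins. High-score intervals were missing from 22 bins (91.7%), against 65.4% of autosomal bins. With only 2 high-score intervals in the window, no fewer bins could lack one, so this share does not bear on gathering. In this window 4 bins held more intervals than all the others together. The variance of the bin counts was 5.15 times their mean, against 3.95 to 7.94 in the other windows and 19.5 over autosomal bins. Such gathering was thus not particular to this window. The mappability of the empty stretches was not tested, so they do not measure how closed the chromatin is.

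The high-score intervals of this window were 111186275 to 111187192, with a score of 0.0391 and a width of 918 bp, and 110767150 to 110767548, with a score of 0.0321 and a width of 399 bp. Both lay within groups of intervals, with 8 and 7 others within 5 kb of their midpoints. The next scores of the window fell below the high-score limit of 0.0237. These were 0.0224 at 110870329 to 110870600, 0.0222 at 111188897 to 111189285 and 0.0219 at 111185170 to 111185483. The last 2 flank the highest-scoring interval, so 3 of the 5 highest scores of a 1.2 Mb window came from less than 5 kb. After intervals within 500 bp were joined, the region 111185170 to 111187192 held 5 intervals, and they covered 68.5% of its 2023 bp. The fullest bin, 111150001 to 111200000, contains this region and held 12 intervals.

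In the Igf2r-Airn window the members lay mostly on the right side. The left 350 kb held 19 intervals with 1 high-score, and the right 350 kb held 77 with 10. Intervals covered 0.441% of the left side and 2.81% of the right. The left high-score interval, 12853442 to 12853660, scored 0.0251. The highest score of the window was 0.0493 at 13108840 to 13109398 (559 bp), followed by 0.0445 at 13072997 to 13073436 (440 bp). The next were 0.0371 at 13236749 to 13237039, 0.0348 at 13153081 to 13153407 and 0.0314 at 13003364 to 13003651. The last of these stood alone, 7980 bp from the nearest other interval.

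The widest of all members was also in the Igf2r-Airn window. It spanned 974 bp at 13191926 to 13192899 and had a score of 0.0250, near the high-score limit, so the widest interval was not among the highest. The fullest bin, 13150001 to 13200000, held 26 intervals with 4 high-score. The longest empty stretches, 12727907 to 12808264 (80.4 kb) and 12853661 to 12930961 (77.3 kb), were both on the left side. The second of these begins right after the left high-score interval.

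In the Gnas window the intervals were densest on the left side, while high scores occurred on both sides. The left 250 kb held 60 intervals with 6 high-score, and the right 250 kb held 25 with 3. The highest score was 0.0391 at 174086605 to 174087504, which at 900 bp was also the widest interval of the window. It was followed by 0.0378 at 174241132 to 174241432, an isolated interval of 301 bp whose nearest neighbour was 23363 bp away. The next were 0.0355 at 174298429 to 174298833 (405 bp), 0.0339 at 174113160 to 174113762 (603 bp) and 0.0324 at 174136171 to 174136781 (611 bp). The fullest bin, 174100001 to 174150000, held 19 intervals, of which 5 were high-score, and no bin of this window was empty. The longest empty stretches were 174308959 to 174388878 (79.9 kb, or 16.0% of the window) and 174152167 to 174210198 (58.0 kb, or 11.6%).

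**Figure D3:**
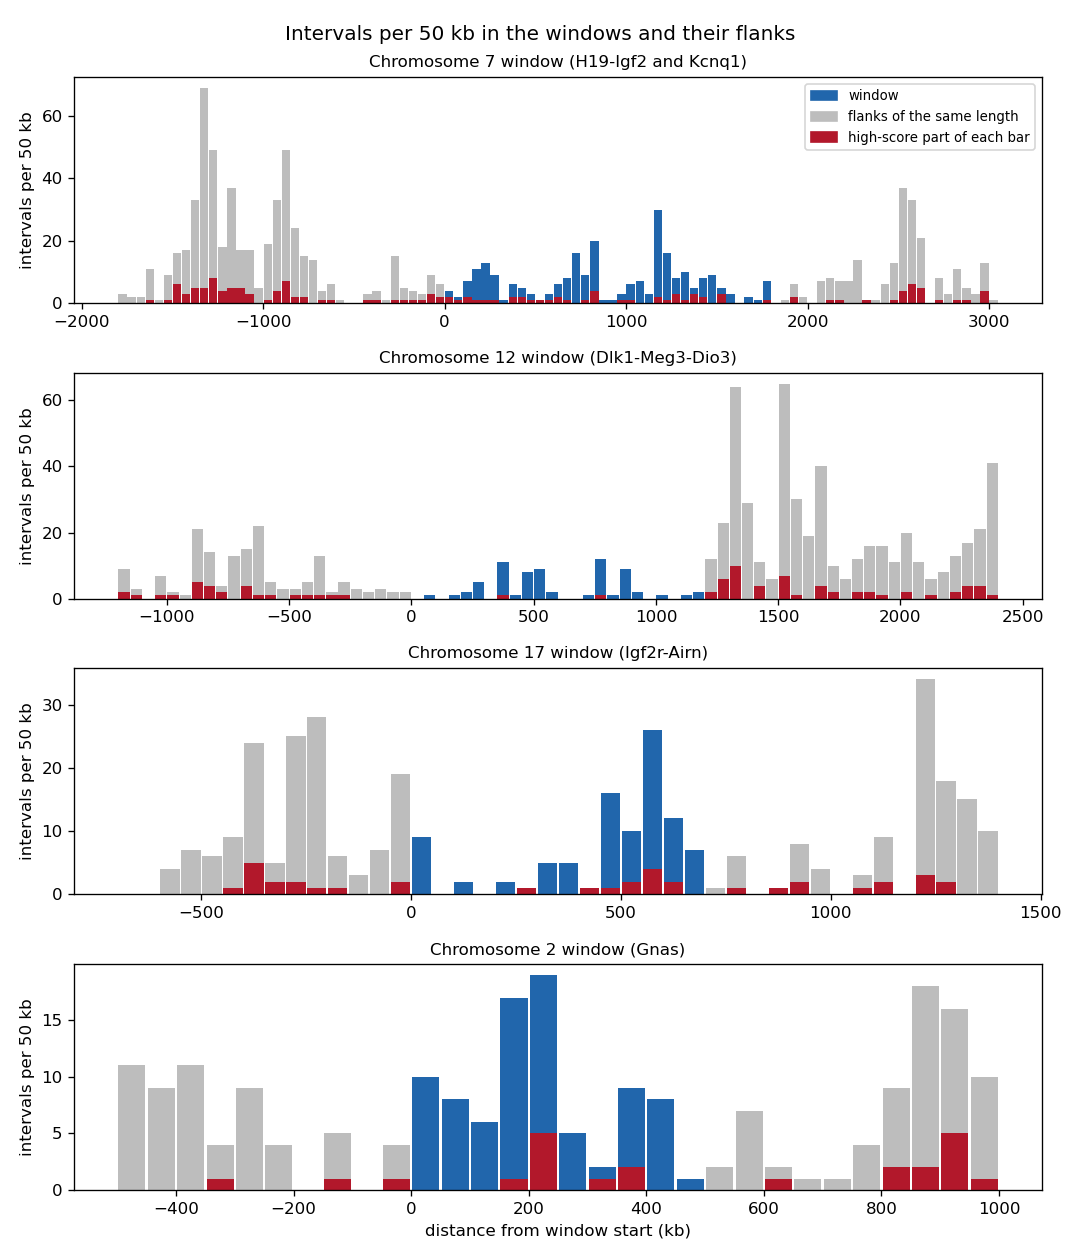
Number of intervals per 50 kb (vertical axis) by distance from the window start in kb (horizontal axis), in a panel per window, with bins of the window in blue, flanks of the same length in grey and the high-score intervals of each bin in red. The fullest bins inside the windows hold 30, 12, 26 and 19 intervals on chromosomes 7, 12, 17 and 2. The chromosome 12 window stands between flanks with fuller bins, though the bins next to its left edge are sparse too.

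The surroundings of the windows were compared over stretches of the same length on either side. The Dlk1-Meg3-Dio3 window had 57.5 intervals per Mb, against 132.5 in its left flank and 422.5 in its right flank. Its 1.67 high-score intervals per Mb compared with 22.5 on the left and 45.8 on the right. The chromosome 7 window had 138 intervals per Mb, against 289 on the left and 172 over the 1.21 Mb on the right that remained before the last interval of the chromosome. The Igf2r-Airn window had 137 intervals per Mb, against 204 on the left and 156 on the right. The Gnas window had 170, against 114 on the left and 140.0 on the right. Thus, on average over each flank, 3 windows were sparser than both of their flanks and the Gnas window was denser than both. The right flanks of the Igf2r-Airn and Gnas windows lay within the counting intervals of these windows (111 to 167 and 136 to 210). No counting interval was computed for the flanks. High-score intervals per Mb followed the same order on chromosomes 7, 12 and 17. The margins were narrow on the right of chromosome 7 (22.8 against 23.1) and of chromosome 17 (15.7 against 17.1). In the Gnas window the 18.0 high-score intervals per Mb lay between 6 on the left and 22 on the right. The flanks were themselves uneven. Left of the chromosome 7 window, the 50 kb bins from 148800001 to 149500000 held at most 15 intervals each, while that from 148150001 to 148200000 held 69. Left of the chromosome 12 window, those from 110150001 to 110400000 held 2 or 3 intervals each and no high-score interval. The sparse stretch there thus reached past the window.

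**Figure D4:**
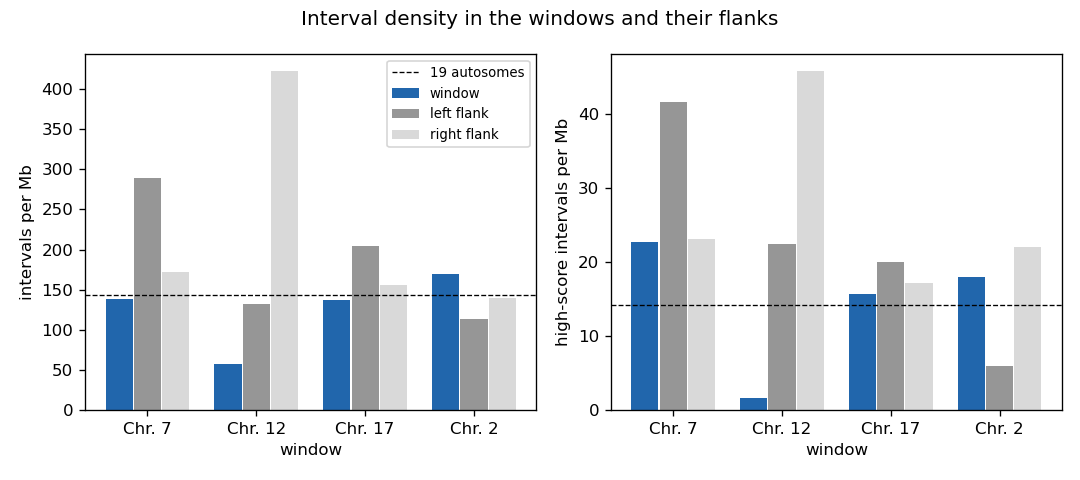
Intervals per Mb (left panel) and high-score intervals per Mb (right panel) on the vertical axes for each window (blue), its left flank (dark grey) and its right flank (light grey), with the autosomal mean dashed (143 and 14.2 per Mb). The chromosome 12 window is the lowest blue bar in both panels, at 57.5 and 1.67 per Mb.

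The edges of the windows did not cut through any interval. The members closest to an edge lay 2.61 kb and 7.14 kb inside the chromosome 7 window, 74.4 kb and 5.70 kb inside the chromosome 12 window, 9.35 kb and 14.6 kb inside the chromosome 17 window, and 1.41 kb and 11.1 kb inside the chromosome 2 window, on the left and right. Just outside, the nearest intervals were between 0.937 kb (right of the chromosome 12 window, score 0.0263) and 67.0 kb away (right of the chromosome 7 window, score 0.0207). The interval right of the chromosome 12 window would have counted as a high-score interval, while the closest one inside that edge scored 0.0163.

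The members' widths had a median of 65 bp and quartiles of 11 and 182.5 bp, against a median of 41 bp on the autosomes. The median was 83 bp on chromosome 7, 66.5 bp on chromosome 17, 63 bp on chromosome 12 and 38 bp on chromosome 2. Of the members, 118 (23.6%, exact binomial interval 19.98% to 27.6%) were at least 200 bp wide, against 20.1% of all intervals, with 18.8% in the chromosome 12 window and 21.9% to 26.1% in the others. At the narrow end, 124 members (24.8%) were no wider than 10 bp, against 30.8% of all, and 17 members were 1 bp wide, a width held by 5.35% of all intervals. The Gnas window was near the share of all intervals at the narrow end, with 28 of 85 (32.9%) no wider than 10 bp. Scores of 259 members (51.9%) lay within 10% of the lowest score of the list, against 58.3% of all intervals. In the Gnas window 52 of 85 (61.2%) did, also near that share. No counting interval was computed for these shares. Score and width were closely related among the members (Spearman's rho = 0.95 over 499 intervals, against 0.94 on the autosomes), a relation that partly follows from how the intervals are drawn.

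The company of the high-score members differed between the windows. The median number of other intervals within 5 kb of a high-score midpoint was 1 in the chromosome 7 window, 3 in the chromosome 17 window, 4 in the chromosome 2 window and 7.5 for the 2 intervals of the chromosome 12 window, against 4 over the autosomes. No other interval lay within that distance for 20 of the 63 high-score members (31.7%), against 13.6% of the 34272 autosomal ones. Of these 20, 16 were in the chromosome 7 window, 2 each in the chromosome 17 and chromosome 2 windows, and none in the chromosome 12 window, so most of the 20 came from chromosome 7. Conversely, 44 of the 436 members below the high-score limit (10.1%) lay within 1 kb of a high-score midpoint, against 16.5% on the autosomes. The share was 9.62% (20 of 208) in the chromosome 7 window and 10.4% (7 of 67) in the chromosome 12 window. It was 8.24% (7 of 85) in the chromosome 17 window and 13.2% (10 of 76) in the chromosome 2 window. Each was below the autosomal share, but on few intervals and without a counting interval. Members were also spaced further apart than autosomal intervals, with a median distance between neighbouring midpoints of 1110 bp against 525.5 bp, and 518 bp in the Gnas window alone. The autosomal values of this paragraph are taken over intervals and not over tiles, so dense stretches weigh most in them. Against tiles of their own length, the windows of chromosomes 7, 17 and 2 held 1.35, 1.6 and 2.12 times the median.

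The highest score was 4.87 times the lowest score of the list in the chromosome 7 window, 3.83 times in the chromosome 17 window and 3.04 times in the chromosome 12 and chromosome 2 windows. The highest-scoring member ranked 901 in the whole list. Among the 63 high-score members the median score was 0.0297, against 0.0303 among the autosomal high-score intervals. Joining intervals within 500 bp gave 288 regions in the windows with a median width of 168 bp, against 166 bp on the autosomes. Of these regions 60.1% consisted of 1 interval, against 51.3% on the autosomes, with 62.5% in the chromosome 7 window, 72.1% in the chromosome 12 window, 52.8% in the chromosome 17 window and 47.5% in the chromosome 2 window. The most fragmented, at 150201824 to 150202051 of chromosome 7, held 7 intervals within 228 bp and a highest score of only 0.0138.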

How the data were processed

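FAIRE-seq of mouse embryonic stem cells was deposited by the authors as 1 list of intervals with a score each. The name of the deposited list names F-Seq, which outlines stretches where a smoothed read density exceeds a threshold. That name also calls the intervals potential peaks, so open chromatin here means listed candidates. Bowtie, without a version, and build mm9 are named per the submitters' processing notes. The sources used here state neither the settings, nor the use of the input library, nor the samples that entered the list, nor the scale of the score. The list has no column that tells samples apart, so ICRF-193 was not compared with DMSO, although this was planned.

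Intervals were assigned by midpoint, and starts, which the list counts from 0, are printed counted from 1. Relative density was the number of intervals in a window over the median of non-overlapping autosomal tiles of the same length, laid from the first to the last interval of each chromosome. High-score intervals were the top 10% of the list. Exact Poisson and binomial 95% intervals were computed with scipy 1.17.1 on tables held in pandas 2.3.3 and numpy 2.4.6 (Python 3.11.15). The density procedure was tested on simulated intervals placed at random without clumping. That simulation does not bear on the choice between tile median and mean density in the uneven real list. No test between groups was possible. The intervals named in each window were the 5 highest in score, the widest, those at the edges, the fullest 50 kb bin and the 2 longest empty stretches. Others named in addition (the remaining high-score interval on the left of the chromosome 17 window and the joined regions) were chosen after their values were seen. The windows and gene lists were chosen with earlier results of these data known.

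Alternatives changed the score threshold, the width filter, joining, the unit counted, the window edges, the background tiles and the windows included. The mean autosomal density as background was chosen after seeing the data.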

Additional observations from a re-analysis of the deposited data

How the results depend on the processing

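Of 82 alternative values for 10 results, 51 stayed within the counting interval of the reported value. Another 28 moved out of it and 3 relative densities changed direction. The 3 came with the mean density of the 19 autosomes, an alternative chosen after seeing the data: relative density was 0.969 on chromosome 7, 0.961 on chromosome 17 and 0.832 for all windows, against 1.35, 1.6 and 1.24. It was 0.403 on chromosome 12 and 1.19 on chromosome 2. The autosomal mean exceeds the tile median, which lowers each ratio by construction. Direction was judged for relative density only, so a high-score share could count as moved but never as reversed. Without the chromosome 7 window, the share of all windows fell from 12.6% to 8.80%, below the 10.0% of the whole list, and was counted as moved.

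Relative density on chromosome 7 moved to 1.64 with scores from the median upwards, 2.28 in the top 10%, 1.81 at a width of at least 200 bp, 1.62 after joining and 1.54 by covered bases. For all windows the values were 1.42, 1.62, 1.51, 1.37 and 1.38. On chromosome 12 it was 0.182 in the top 10%, 0.761 with windows lengthened by 100 kb and 0.868 against tiles of the same chromosome, and it stayed below 1 in all 10 alternatives. On chromosome 2 it was 2.64 with shortened and 1.63 with lengthened windows. Leaving out 1 window at a time gave 1.14 to 1.51 for all windows, the highest without chromosome 12. The causes were not tested.

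The high-score share at a width of at least 200 bp was 60.0% on chromosome 7, 15.4% on chromosome 12, 52.4% on chromosome 17, 47.4% on chromosome 2 and 51.7% for all windows, against 49.3% of the whole list. After joining it was 26.3% on chromosome 7 and 20.1% for all windows, against 19.6%. With the top 5% as the limit it was 6.43% on chromosome 7, 6.01% for all windows and 2.90% on chromosome 12, against 5.0%. The share of the whole list is lower by construction. The chromosome 7 share also came closer to that of the list than with the top 10% (16.5% against 10.0%). Leaving out 1 window at a time gave 8.80% to 14.2%. On chromosome 12 the share was 9.26% with lengthened windows, within its counting interval of 0.353% to 10.1%.

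No paired analysis was possible because the list does not separate samples. No replicate was left out for the same reason. With the read depth unknown, a missing interval shows little.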
